A study of Mus musculus with 12 samples.

Results

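Genes of cholesterol synthesis and its feedback control were examined in 12 libraries of liver RNA from male mice, aged 7 to 8 weeks when put on a diet with 60 kcal% fat that lasted 3 months. Prohibitin 1 had been deleted in adipocytes for 6 libraries (Phb1 adipo-/-, called KO here), and 6 were wild type (WT); no label names the animal behind a library. All 12 libraries came from mice on the diet, so no group shows the genes on ordinary chow. The strain and the driver of the deletion were not stated. The 30 genes were chosen by name: 19 synthesis enzymes, 4 regulators of the transcription factor SREBP2, and 7 genes of sterol uptake, transport or SREBP2 response. All 30 of 30 were among the 15140 genes counted and passed the filter on low counts, as did 15000 genes in all.

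Liver makes cholesterol from acetyl-CoA through mevalonate, isoprenoids and squalene. SREBP2, encoded by Srebf2, is held in the endoplasmic reticulum by the escort protein Scap and by Insig1 or Insig2 when sterols are plentiful, and is released to the nucleus when they are scarce, where it raises the genes of nearly every enzyme of the pathway and Insig1 itself. Insig2 is not driven by SREBP2 in the same way. In mouse liver its RNA is known to rise with fasting, to fall with insulin and to cycle over the day.

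Regulatory sequence is described first, because the results turn on which members moved together. RefSeq promoter windows (build GRCm38.p6, 250 bases before to 50 after a start) were found for 24 members, in 31 windows. The bases before the outermost annotated start are printed for 5 members: Insig2, the member that changed; Insig1, its homologue; Hmgcs1, the member with a sterol element match; Mvk, with repeated NF-Y boxes; and Ggps1, the enzyme that moved least with the others. Capitals mark the letters TCACNCCAC (a sterol regulatory element) and CCAAT (the box of the SREBP2 partner NF-Y), read on both strands, so that ATTGG is CCAAT on the opposite strand.
Insig2, chr1:121332590-121332839, minus strand: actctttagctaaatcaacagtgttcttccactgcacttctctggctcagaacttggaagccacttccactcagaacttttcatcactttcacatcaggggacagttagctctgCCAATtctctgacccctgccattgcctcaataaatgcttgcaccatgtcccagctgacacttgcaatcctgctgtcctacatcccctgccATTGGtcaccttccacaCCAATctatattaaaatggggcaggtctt
Insig1, chr5:28071162-28071362, plus strand: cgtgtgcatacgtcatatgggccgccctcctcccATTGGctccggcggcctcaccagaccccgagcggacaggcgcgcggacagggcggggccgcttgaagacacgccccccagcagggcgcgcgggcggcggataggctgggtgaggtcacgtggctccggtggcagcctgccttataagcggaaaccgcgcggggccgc
Hmgcs1, chr13:119690101-119690350, plus strand: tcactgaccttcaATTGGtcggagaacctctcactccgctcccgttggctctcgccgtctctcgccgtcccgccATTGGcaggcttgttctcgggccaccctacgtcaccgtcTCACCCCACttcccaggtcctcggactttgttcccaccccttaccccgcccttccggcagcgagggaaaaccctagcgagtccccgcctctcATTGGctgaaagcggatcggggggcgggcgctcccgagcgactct
Mvk, chr5:114444019-114444268, plus strand: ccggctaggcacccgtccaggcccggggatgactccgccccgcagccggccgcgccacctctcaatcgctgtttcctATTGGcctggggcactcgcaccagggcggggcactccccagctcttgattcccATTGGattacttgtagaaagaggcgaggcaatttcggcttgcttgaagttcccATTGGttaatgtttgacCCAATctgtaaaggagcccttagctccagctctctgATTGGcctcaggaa
Ggps1, chr13:14063489-14063738, minus strand: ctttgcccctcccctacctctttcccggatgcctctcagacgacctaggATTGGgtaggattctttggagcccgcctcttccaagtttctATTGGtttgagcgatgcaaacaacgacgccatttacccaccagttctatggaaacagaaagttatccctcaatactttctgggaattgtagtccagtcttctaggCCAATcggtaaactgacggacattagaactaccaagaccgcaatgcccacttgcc

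Positions are counted from the start, with -1 as the base before it. Hmgcs1 held TCACCCCAC with its first base at -137, the 1 match to TCACNCCAC among the 31 member windows, against 1.24% of all 32851 windows. The same letters with C in place of N and an A in front, a longer form that overlaps the shorter one, were in 0 of the 31 and in 0.0913% of all. The search took exact letters, with N as any base, so a sterol element with other letters was not counted. These counts therefore do not show which members lack such an element. CCAAT was in 22 of the 31 member windows (71.0%), against 37.4% of all windows. Mvk held ATTGG at -173, -120, -67 and -14, each 53 bases from the next. Insig2 has 3 RefSeq windows, and 1 of them, the one printed, held CCAAT, at -136 and -29 and at -46 on the opposite strand. The counts are per gene and do not separate the starts of Insig2. The letters TAGGTCA, the core of the element bound by REV-ERB and ROR proteins, were searched after the values were seen. They were in 0 of these 3 windows, in 2 of the 31 member windows (both of Dhcr7) and in 2.61% of all. With 3 windows and exact letters, this does not show whether Insig2 lacks such an element. Ggps1 held 3 CCAAT boxes, at -201, -160 and -55. Whether these boxes bear on which members moved together was not tested.

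Insig2 was the member that rose in KO livers, 2.10-fold (95% interval 1.59 to 2.78), and Insig1 was 1.58-fold higher without passing the test. The 19 synthesis enzymes did not separate the genotypes, although most of them varied several-fold between libraries of one genotype and did so together. Of 7 genes of sterol uptake, transport or SREBP2 response, 6 had negative fold changes and 0 passed the test. Of the 30 members, 1 was called (p under 0.05 after Benjamini-Hochberg adjustment over all genes, edgeR), against 2.64% of all genes tested, of which 1.15% were higher in KO and 1.49% lower, so the share of members called was near the background.

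Insig2, an endoplasmic reticulum protein that retains Scap, had 378, 519, 345, 433, 259 and 499.8 CPM (counts per 1000000, TMM-scaled) across KO libraries 1 to 6. Across WT libraries 1 to 6 it had 246, 178, 144, 173, 159 and 261 CPM. KO library 5 fell just under WT library 6, and the other 5 KO libraries lay above every WT library. KO livers averaged 406 ± 98.4 CPM and WT livers 193 ± 48.2 CPM (n = 6 per genotype, SD). The log2 fold change was 1.07 with an SE of 0.19 (adjusted p = 0.0179, edgeR), and exact permutation of the 12 libraries gave a two-sided p of 0.00433 before any adjustment. Its adjusted p ran from 6.34e-06 with DESeq2 to 0.0517 over all settings tried: the call was lost without WT library 2 (0.0517) or WT library 4 (0.0516), where the log2 fold change was 1.05 and 1.04. The gene lies on chromosome 1 (121304353 to 121332589, minus strand, GRCm38).

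Insig1, the homologue that SREBP2 induces as a feedback brake, had 383, 330, 286, 436, 666 and 513 CPM across KO libraries 1 to 6. Across WT libraries 1 to 6 it had 183, 259, 347, 258, 235 and 370.1 CPM. KO libraries 1, 4, 5 and 6 lay above every WT library, and KO libraries 2 and 3 lay within the WT range. KO livers averaged 436 ± 138 CPM and WT livers 275 ± 70.5 CPM (n = 6 per genotype, SD). The log2 fold change was 0.66 with an SE of 0.21 (adjusted p = 0.107, edgeR; p = 0.0238 by exact permutation, unadjusted). The adjusted p was 0.0313 with DESeq2, which called 8.07% of all genes, and 0.0167 in the authors' deposited table, which called 5.58%. In the authors' deposited table these 2 Insig genes were the members with an adjusted p under 0.05, and the next lowest was 0.164. Insig1 lies on chromosome 5 (28071363 to 28078662, plus strand).

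Srebf2 itself ran from 66.5 to 119 CPM in KO (median 81.3) and from 72.9 to 111 CPM in WT (median 90.8). The groups overlapped, and the log2 fold change was -0.11 ± 0.15 SE (adjusted p = 0.723, edgeR; 95% interval -0.42 to 0.21). Scap, the escort that carries SREBP2 to the Golgi, ran from 88.6 to 139 CPM in KO and from 109.7 to 152 in WT, with a log2 fold change of -0.09 ± 0.11 (SE; 95% interval -0.33 to 0.16). The interval of each excludes a 1.5-fold difference in either direction, whereas those of Insig1 and Insig2 lie above 0.

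**Figure D1:**
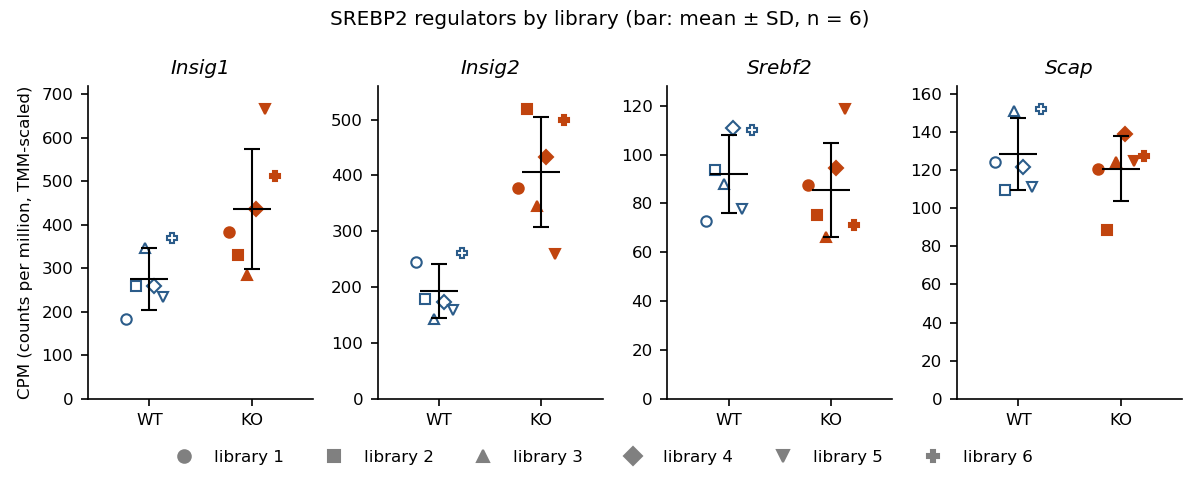
Level of the 4 regulators of SREBP2 in each library (y axis, CPM; filled symbols KO, open symbols WT; symbol shape is the library number; black bar, mean ± SD, n = 6). For Insig2, 5 of the 6 KO libraries sit above all WT libraries, for Insig1 4 of 6, while Srebf2 and Scap overlap.

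Among the 9 enzymes from acetoacetyl-CoA to squalene and geranylgeranyl diphosphate, 7 had positive fold changes, 0 were called and the median log2 fold change was 0.26. Fdps, which makes farnesyl diphosphate, ran from 10.02 to 39.3 CPM in KO (median 11.8) and from 4.04 to 14.4 CPM in WT (median 7.44). KO libraries 1 and 5 were above every WT library, and its log2 fold change of 0.95 ± 0.42 SE (adjusted p = 0.217, edgeR) dropped to 0.48 without KO library 5. Mvd, the mevalonate diphosphate decarboxylase gene, ran from 22.7 to 92.2 CPM in KO (median 40.5) and from 13.1 to 55.3 in WT (median 27.1), with KO library 5 alone above the WT range. Its log2 fold change was 0.61 ± 0.40 (SE; adjusted p = 0.404), and 0.27 without KO library 5.

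Hmgcs1, the cytosolic HMG-CoA synthase gene, ran from 192 to 783 CPM in KO (median 348) and from 162 to 749 CPM in WT (median 257), so that both groups covered nearly the same range. Its log2 fold change was 0.26 ± 0.44 SE (adjusted p = 0.783, edgeR), with a 95% interval from -0.71 to 1.23. Ggps1, which makes geranylgeranyl diphosphate on a side branch, varied little, from 9.06 to 11.6 CPM in KO (median 10.2) and from 8.397 to 10.2 in WT (median 9.68; log2 fold change 0.13 ± 0.09 SE). Acat2 (cytosolic thiolase), Pmvk and Idi1 (steps of mevalonate activation and isomerisation) had log2 fold changes of 0.28, 0.32 and 0.10, while Mvk and Fdft1 (squalene synthase) stood at -0.01 and -0.03. Adjusted p-values of these 5 ran from 0.552 for Acat2 to 0.993 for Mvk.

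The 10 enzymes from squalene to cholesterol had a median log2 fold change of 0.13, with 8 positive and 0 called. Sqle, the squalene epoxidase that commits the pathway to sterols, ran from 39.6 to 189 CPM in KO (median 111) and from 49.1 to 191 CPM in WT (median 93.6). Its log2 fold change was 0.03 ± 0.39 (SE; 95% interval -0.82 to 0.88). Sc5d, a late desaturase gene, ran from 454 to 808 CPM in KO (median 611) and from 371 to 772 CPM in WT (median 428; log2 fold change 0.28 ± 0.19 SE; adjusted p = 0.427). Ebp, the sterol isomerase gene, was the steadiest enzyme, at 169 to 214 CPM in KO (median 196) and 168 to 196 CPM in WT (median 182; log2 fold change 0.08 ± 0.07 SE).

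The remaining late enzymes spread around 0. Dhcr7, the last reductase analysed, stood at 0.29, Nsdhl at 0.28, Hsd17b7 at 0.23, Cyp51 at 0.16 and Lss, the lanosterol synthase, at 0.10 (log2 fold changes). Tm7sf2 and Msmo1, which act on the sterol nucleus after lanosterol, stood at -0.11 and -0.18. Over all 19 enzymes 15 fold changes were positive and 4 negative, with a median log2 fold change of 0.16, against 7586 positive and 7414 negative and a median of 0.00 among all 15000 genes tested. Of the 19 intervals (95%), 14 include a 1.5-fold rise and 8 include a 1.5-fold fall, so a rise of that size was not excluded for most enzymes. At an unadjusted p under 0.05, 1 enzyme (Fdps) passed, where 21.2% of all genes did.

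**Figure D2:**
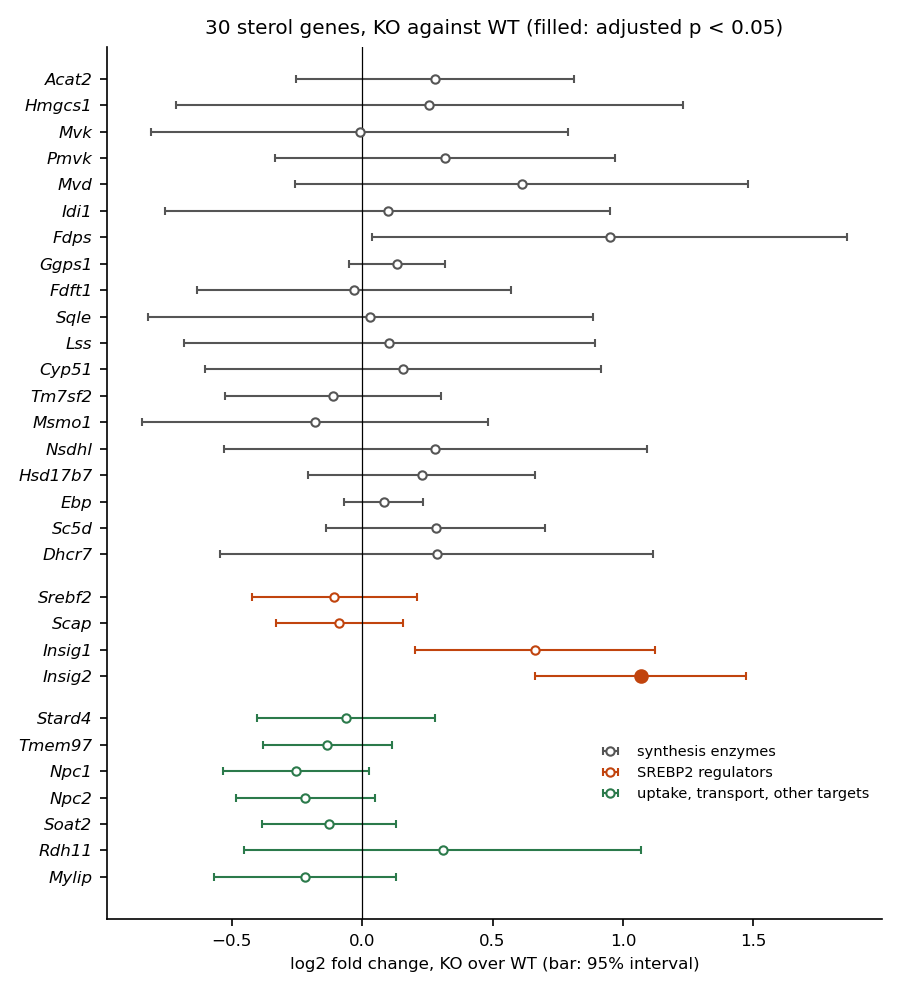
Log2 fold change of KO over WT for each of the 30 genes (x axis; point, edgeR estimate; bar, 95% interval; filled point, adjusted p under 0.05), ordered by role. Insig2 is the filled point, the enzyme intervals cross 0 except for Fdps and are narrow for Ebp and Ggps1, and 6 of the 7 transport and response genes lie left of 0.

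Among genes of sterol uptake, transport and SREBP2 response, 1 fold change was positive and 6 negative, 0 were called, and the median log2 fold change was -0.13. Npc1, which exports cholesterol from lysosomes, ran from 85.6 to 142 CPM in KO (median 102) and from 107.7 to 149 in WT (median 135), and 3 KO libraries lay below the WT range (log2 fold change -0.25 ± 0.13 SE; adjusted p = 0.283). Npc2, its soluble partner, ran from 46.3 to 72.8 CPM in KO (median 53.2) and from 54.03 to 73.7 in WT (median 68.02), also with 3 KO libraries below the WT range (-0.22 ± 0.12 SE; adjusted p = 0.332). Mylip, a ubiquitin ligase that lowers lipoprotein receptors and is induced through LXR, ran from 6.96 to 14.1 CPM in KO (median 10.9) and from 10.1 to 14.9 in WT (median 12.5; -0.22 ± 0.16 SE; adjusted p = 0.464).

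The sterol carrier gene Stard4 (-0.06), the sigma-2 receptor gene Tmem97 (-0.13) and the cholesterol esterifying enzyme gene Soat2 (-0.13) had small log2 fold changes, with adjusted p-values from 0.540 to 0.859. Rdh11, a retinol dehydrogenase gene induced by SREBP proteins, was the positive one, at 0.31 ± 0.35 (log2, SE). It ran from 40.2 to 86.7 CPM in KO and from 22.1 to 86.5 CPM in WT, the wide range seen for the enzymes. Groups did not overlap for 0 of the 30 members, against 2.53% of all genes tested (1.29% with KO higher).

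Levels were compared between genes on the TPM scale, in which counts are divided by the length of annotated exons and set to a common total. In WT livers Sc5d had the highest level, 243 ± 66.9 TPM, followed by Insig1 (207 ± 41.7), Ebp (186 ± 16.4) and Hmgcs1 (168 ± 94.1; n = 6 per genotype, SD). The ranges of neighbouring genes in this order overlapped. Insig2 was the sixth, at 130 ± 28.3 TPM in WT, between 95.3 and 173, and at 263.5 ± 83.7 TPM in KO, between 170 and 406. In KO the highest mean was that of Insig1, 314 ± 101 TPM, above Sc5d at 285 ± 70.1 TPM, with overlapping ranges. Srebf2 stood at 30.1 ± 5.02 TPM in WT and 26.8 ± 7.02 TPM in KO. Ggps1 and Fdps were lowest in WT (4.73 ± 0.520 and 4.72 ± 1.97 TPM). The transcript of Fdps matches those of 5 other annotated genes at 95% identity or more over at least 300 bases. Acat2, Fdft1, Ggps1, Hmgcs1, Idi1, Npc1 and Tmem97 also have such matches, and exons of Ggps1, Fdft1, Cyp51, Tm7sf2 and Npc1 overlap those of another counted gene, so the counts of these members are uncertain. Insig1 and Insig2 had neither.

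The enzymes moved together from library to library. Over the 171 pairs of enzymes the median Pearson correlation of deviations from the group means was 0.90 (12 libraries, log2 CPM), against a median of -0.00 over all pairs of tested genes, and 125 pairs exceeded 0.8. All libraries share the same scaling, so these values describe the libraries and carry no test. The median SD of log2 CPM among the enzymes was 0.51 in KO and 0.69 in WT, against 0.25 and 0.21 over all tested genes. The ratio of the highest to the lowest library exceeded 3 for 13 of the 19 enzymes, reaching 7.03 for Mvd and 9.74 for Fdps and going down to 1.38 for Ggps1 and 1.27 for Ebp.

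The mean of the 19 enzymes (log2 CPM, each centred on its own mean) ranked the libraries across both genotypes. KO library 5 was highest (0.84), followed by WT libraries 6 (0.65) and 3 (0.50) and KO libraries 1 (0.35) and 4 (0.28). WT library 1 was lowest (-0.82), with WT library 5 (-0.60) and KO library 6 (-0.45) next. In KO library 5, 19 of 19 enzymes stood above their own mean, and in WT library 5, 0 of 19. KO livers averaged 0.12 ± 0.47 and WT livers -0.12 ± 0.59 (n = 6 per genotype, SD), and KO library 5 alone lay above the WT range.

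**Figure D3:**
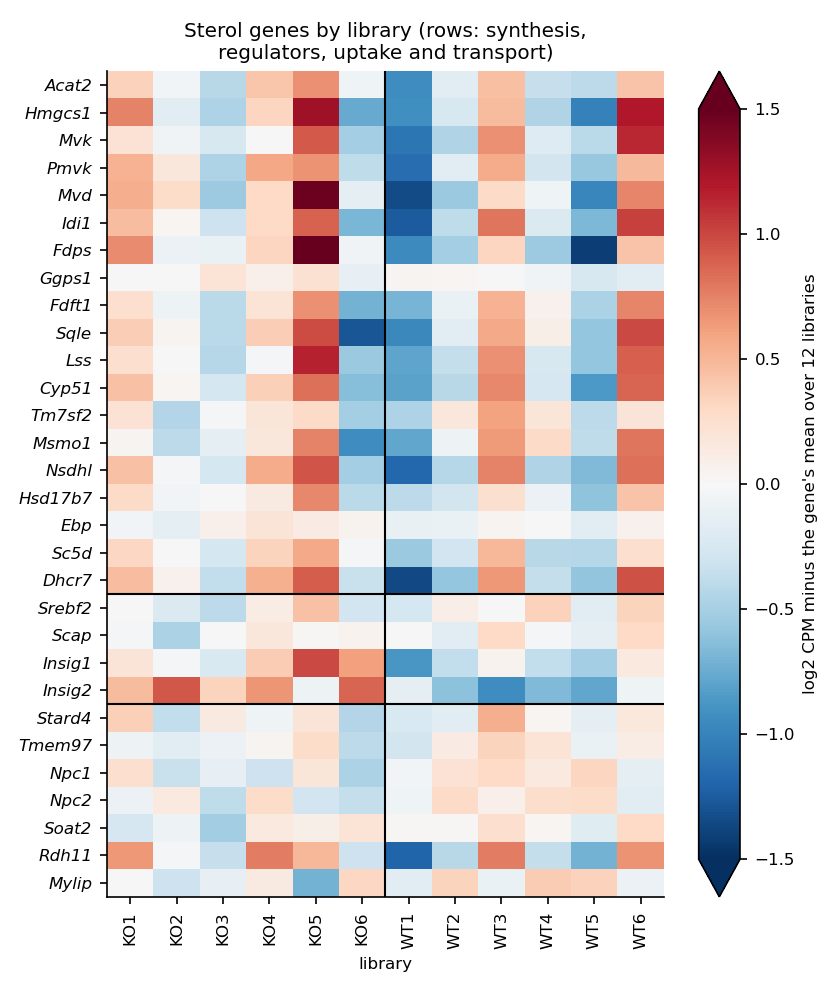
Level of each of the 30 genes in each library (rows, genes by role; columns, KO libraries 1 to 6 and WT libraries 1 to 6; colour, log2 CPM minus the mean of that gene over 12 libraries). Most enzyme rows share 1 pattern, high in KO library 5 and WT libraries 3 and 6 and low in WT libraries 1 and 5, Ggps1 and Ebp stay pale, and the Insig2 row is red in 5 of 6 KO libraries and in 0 of 6 WT libraries. Colours end at 1.5 in either direction.

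Each member was then set against the mean of the enzymes (leaving itself out) by its deviations from the group means. Of the 19 enzymes, 16 had r above 0.9, led by Fdft1 (0.99), Idi1 (0.99) and Nsdhl (0.98). The exceptions were Tm7sf2 (0.82), Ebp (0.55) and Ggps1 (0.18). Outside the enzymes, Rdh11 (0.93), Tmem97 (0.84), Srebf2 (0.79), Insig1 (0.75) and Stard4 (0.73) had high values, and Mylip was negative (-0.48). The 3 genes with lysosomal or esterifying roles were lower, Soat2 at 0.46, Npc1 at 0.32 and Npc2 at -0.06.

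Insig1 and Insig2 differed in this respect. Insig1 followed the enzymes closely in WT (r = 0.98 over 6 libraries) and less so in KO (0.54 over 6), where KO library 6 held the second highest Insig1 level and the lowest enzyme mean of its group. Taken relative to the enzyme mean, Insig1 stood 1.06 log2 units above in KO library 6 and between -0.15 and 0.15 in the other 5 KO libraries, against -0.50 to 0.09 in WT. Over all 12 libraries r was 0.71, and 0.59 without the 2 libraries farthest from the median of the enzyme mean. For deviations from the group means Insig1 had r = 0.75 with the enzyme mean and Insig2 had -0.33 (-0.71 within KO, -0.02 within WT). Over all 12 libraries Insig2 had r = 0.03 with the enzyme mean. Insig2 and Insig1 had r = -0.27 with each other for deviations from the group means and 0.45 over 12 libraries. In the libraries richest in enzyme RNA, KO library 5 had the lowest Insig2 of its group and WT library 6 the highest of its group. Correlations within a group of 6 libraries are imprecise, and none was tested.

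Genes of the circadian clock moved with Insig2. The clock genes listed as the Dbp phase were Dbp, Tef, Hlf, Per1, Per2, Per3, Nr1d1, Nr1d2 and Ciart. All 9 had negative fold changes and 2 fell, Hlf (log2 -0.80 ± 0.16) and Tef (-0.93 ± 0.20). Their summed level ran from 323 to 589.8 CPM in KO and from 575 to 966 CPM in WT. Of 5 genes listed as the opposite phase (Arntl, Npas2, Clock, Nfil3 and Cry1), 5 were positive and 1 rose. It was Cry1 (0.96 ± 0.21 SE, adjusted p = 0.0360, edgeR). Sums of the 5 were 83.0 to 144 CPM in KO and 60.6 to 108 in WT. Among all genes tested, 1.49% fell and 1.15% rose.

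Insig2 had r = -0.95 with the mean of the 9 Dbp-phase genes over 12 libraries (Spearman's rho -0.94), -0.84 for deviations from the group means, -0.76 within KO and -0.93 within WT. It was -0.92 without the 2 libraries farthest from the median of the clock mean, KO library 6 and WT library 3. KO libraries 2 and 6 had the lowest Dbp-phase means and the highest Insig2, and WT library 3 had the highest Dbp-phase mean (0.89) and the lowest Insig2. WT library 6 and KO library 5, which met in Insig2 level, also met in the clock mean (-0.25 and -0.25). KO library 3 went the other way, with a higher clock mean (0.053) and a higher Insig2 level (345 CPM) than either. Single genes ran from -0.97 (Per3) to -0.16 (Nr1d1, which encodes REV-ERB alpha, a clock repressor known to act on Insig2) over 12 libraries. For deviations from the group means Nr1d1 had the opposite sign to the other 8, 0.46 (0.30 within KO, 0.69 within WT), and Per1 was positive within KO (0.48). The enzyme mean had r = -0.17 with the same clock mean and Insig1 -0.58, or 0.03 and -0.14 for deviations from the group means. The time of day of sampling is not given in the sources used here. The part of the clock genes in the Insig2 difference was not tested.

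**Figure D4:**
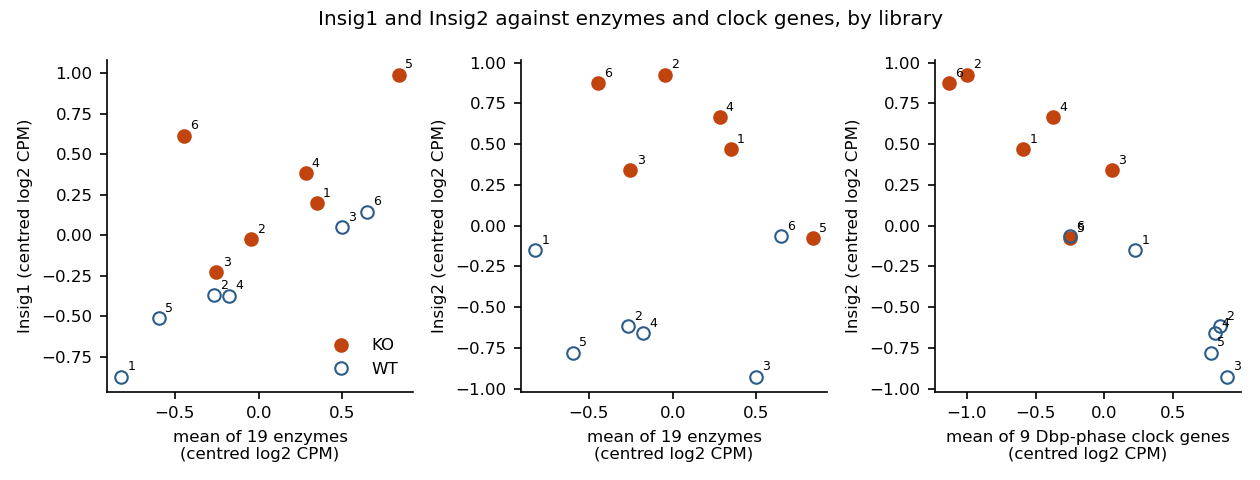
Insig1 against the mean of the 19 enzymes (left), Insig2 against the same mean (middle) and Insig2 against the mean of 9 Dbp-phase clock genes (right), in log2 CPM centred on each gene's mean; filled points KO, open points WT, labelled by library number. Insig1 climbs with the enzymes apart from KO library 6, Insig2 does not follow them, and Insig2 descends along the clock axis in both genotypes (r = -0.95).

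Markers of other liver cells were read beside these results, and beside the shares of all genes tested that rose (1.15%) and fell (1.49%). The 8 hepatocyte markers, Alb among them, summed to between 71299.8 and 97261 CPM in KO and between 68189.9 and 99545 CPM in WT, and 1 of them rose, Tat, an amino acid enzyme gene (log2 0.80 ± 0.14 SE; adjusted p = 0.0176, edgeR). With the mean of the hepatocyte markers Insig1 had r = 0.88 over 12 libraries and 0.81 for deviations from the group means, and Insig2 had 0.35 and -0.37. The enzyme mean had 0.63 over 12 libraries and 0.63 for deviations from the group means (0.24 within KO, 0.94 within WT). Of 12 macrophage markers, all had negative fold changes and 3 fell (Cd5l, Adgre1 and Vsig4); their sums ran from 210.0 to 409 CPM in KO and from 353 to 561 in WT. In bulk RNA, fewer cells of a type and less RNA per cell cannot be told apart. With the macrophage mean Insig2 had r = -0.68 over 12 libraries and -0.00 for deviations from the group means, and Insig1 had -0.65 and -0.27. None of the hepatocyte or macrophage markers was at 0.

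Markers of 8 other cell types were read in the same way. All 5 T and B cell markers analysed had negative fold changes and 1 fell, Lck, a T cell kinase gene (log2 -1.31 ± 0.30 SE; adjusted p = 0.0394, edgeR), with sums of 1.29 to 3.01 CPM in KO and 2.69 to 4.46 in WT. All 5 skeletal muscle markers were negative (median log2 fold change -1.16) and 0 passed, with sums of 3.995 to 11.4 CPM in KO and 4.77 to 32.4 in WT. Both neutrophil markers analysed were negative and 0 passed (sums of 3.93 to 10.06 CPM in KO and 4.77 to 17.3 in WT). Insig2 had r = -0.54 with the T and B cell mean, -0.37 with the muscle mean and -0.25 with the neutrophil mean over 12 libraries, and 0.29, 0.34 and 0.17 for deviations from the group means. None of 6 stellate cell, 5 sinusoidal endothelial, 4 cholangiocyte and 4 erythroid markers passed. Fold changes were positive for 4 stellate cell, 4 cholangiocyte and 4 erythroid markers, and negative for 5 endothelial and 2 stellate cell markers. Over 12 libraries Insig2 had r = 0.27, -0.37, 0.54 and 0.34 with the stellate cell, endothelial, cholangiocyte and erythroid means. For deviations from the group means the values were 0.51, -0.10, 0.43 and -0.05, in the same order. Cidec, the 1 adipocyte marker analysed, did not pass either (log2 1.81 ± 0.76 SE, adjusted p = 0.202, edgeR). The other adipocyte markers listed, Adipoq, Plin1, Lep and Retn, were not among the genes counted. Cidec alone therefore cannot stand for adipocytes here. The part of these markers, hepatocyte and macrophage markers included, in the Insig and enzyme results was not tested.

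Of 54 further genes around the pathway, 2 rose and 0 fell, and Me1 is the one described here. Over all genes tested, 1.15% rose and 1.49% fell. Among the electron donors and partners of the sterol enzymes, Por, which passes electrons to Cyp51 and Sqle, ran from 145 to 326 CPM in KO (median 242) and from 119.7 to 571 CPM in WT (median 425). The groups overlapped, and its log2 fold change was -0.81 ± 0.33 SE (adjusted p = 0.188, edgeR). Lbr, a sterol reductase gene, stood at 0.28 ± 0.15 and Cyb5b, which encodes an electron carrier, at 0.13 ± 0.08 (log2 fold change, SE), and neither passed.

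Among 8 genes supplying acetyl-CoA and NADPH, all 8 fold changes were positive (median log2 fold change 0.30) and Me1, the cytosolic malic enzyme, rose (0.82 ± 0.18 SE; adjusted p = 0.0355, edgeR). Aacs, which activates acetoacetate for sterol synthesis, stood at 0.72 ± 0.19 (adjusted p = 0.0653), Pgd, an NADPH-producing enzyme of the pentose phosphate pathway, at 0.40 ± 0.12 (0.0918), and the citrate carrier gene Slc25a1 at 0.21 ± 0.11 (0.311). Leaving out any one of KO libraries 1 and 6 and WT libraries 1, 2, 3, 4 and 5 ended the Me1 call.

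None of the other 3 groups held a called gene. Among 13 genes of SREBP processing and sterol sensing the median log2 fold change was -0.01, with Ufd1 at 0.21 ± 0.07 and Erlin2 at -0.18 ± 0.06, both of which act in the degradation of endoplasmic reticulum proteins, and Pgrmc2 at 0.18 ± 0.10. For Erlin2 the highest KO library lay under the lowest WT library, without passing (adjusted p = 0.102). Among 10 genes of sterol transfer and esterification the median was 0.02; Osbp (0.30 ± 0.08), Scp2 (0.29 ± 0.09), Stard3 (-0.60 ± 0.23) and Gramd1c (0.29 ± 0.13) had the smallest p-values. Among 15 genes of the isoprenoid branches it was 0.06, with Zmpste24 at 0.15 ± 0.06, Pdss2 at 0.23 ± 0.09, Fntb at 0.28 ± 0.14 and Nus1 at 0.12 ± 0.07. DESeq2 called 8 of the 54, adding Aacs, Pgd, Osbp, Scp2, Ufd1 and Erlin2, where it called 8.07% of all genes.

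Some of these genes followed the enzymes although they were not called. Erg28, a scaffold of the sterol demethylation enzymes, had r = 0.97 with the enzyme mean for deviations from the group means, 0.95 within KO and 0.99 within WT. Its log2 fold change was -0.10 ± 0.16 (SE; adjusted p = 0.764). Slc25a1 (0.84), Acss2 (0.84) and Acly (0.83), which supply cytosolic acetyl-CoA, came next, with Lbr, a sterol reductase of the nuclear membrane, at 0.78. Me1 did not follow the enzymes (-0.11, with 0.06 within KO and -0.35 within WT). Srebf1 had 0.48, with 0.02 within KO and 0.76 within WT.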

How the data were processed

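The authors deposited a table of whole-number read counts for each gene and library, with no normalization of these columns. The same deposited table has the authors' log2 fold change and adjusted p-value for KO over WT, under DESeq2's column names. FastQC, Trimmomatic, HISAT2, SAMtools, featureCounts and DESeq2, with the build GRCm38, are listed in the submitters' processing notes. Which annotation was used, whether strand was read and how shared reads were counted is not given in the sources used here. Per the labels, mRNA was selected by its polyA tail.

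Repeats of a gene's row (204, with equal counts) were dropped. Libraries held 30348123 to 40828767 counts, so counting error is small beside the spread between libraries. All 30 within-group pairs of libraries differed beyond sampling noise (chi-square over degrees of freedom of at least 38.1). Groups and numbers came from the titles. No label identifies the animal, so the spread behind each p may be partly technical.

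The test was the quasi-likelihood F test of edgeR 4.0.16 in R 4.3.3 (TMM, filterByExpr, robust fit, threshold 0.05, Benjamini-Hochberg adjustment), tried first on simulated counts. SE is the unshrunken log2 fold change over the square root of F. Log2 CPM used a prior count of 2. Lengths and positions came from GENCODE M21 (GRCm38). Alternatives were DESeq2 1.42.0, limma-voom (limma 3.58.1), other scalings and filters, a replicate block and each library left out. Members, lists and the division of clock genes were chosen with earlier results of these data known. Lists were counted, not tested as sets. Correlations of 84 genes with the enzyme mean, and of 12 marker or clock lists with Insig1, Insig2 and that mean, are descriptions. Values are given for called members, for those with the smallest p until 10, for Srebf2, Insig1, Insig2, Hmgcs1 and Sqle, and for up to 4 genes of each further list. Erg28, Acss2, Acly, Srebf1 and the TAGGTCA search were chosen after their values were seen. Some genes of the further lists are not reported here.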

Additional observations from a re-analysis of the deposited data

Results flagged for a closer look

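Each of the 30 members was examined in both genotypes for a library standing far from the other 5 of its group on the log2 CPM scale. Of 60 such groups, 1 held one, where chance gives about 3. Scap was low in KO library 2, at 88.6 CPM against 121 to 139 CPM in the other 5 KO libraries, and the gap to the nearest library was 0.687 of the range of the group. KO library 2 also held the highest Insig2 level of all 12 libraries (519 CPM). KO library 6, close to it in Insig2 (499.8 CPM), had 128 CPM of Scap. A link between the 2 genes was not tested.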

How the results depend on the processing

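Over 19 alternatives, 21 of the 30 members kept their sign in all, and 28 were called in none. Synthesis enzymes called and transport genes called stayed at 0 in each, and the median log2 fold change of the enzymes stayed positive (0.06 to 0.36 with 1 library left out, 0.14 to 0.25 otherwise). DESeq2 called 1210 genes, 2 members (2 regulators, Insig1 and Insig2) and 8 further pathway genes, against 396, 1, 1 and 2; scaling by total counts called 257 genes. With 1 library left out, 25 to 700 genes were called (25 without WT library 4, 46 without WT library 2, 86 without KO library 6, 89 without WT library 5, 235 without KO library 2, 700 without WT library 6), 0 to 1 members, 0 to 1 regulators and 0 to 4 further pathway genes, with 0 without WT library 2 or 4 for each of the last 3. The sign of uncalled members changed with 1 library left out, over a range of -0.046 to 0.65 for Hmgcs1, -0.25 to 0.30 for Mvk, -0.10 to 0.38 for Idi1, -0.21 to 0.14 for Fdft1, -0.21 to 0.29 for Sqle, -0.21 to 0.34 for Lss, -0.021 to 0.40 for Cyp51, -0.20 to 0.017 for Tm7sf2 and -0.14 to 0.061 for Stard4 (log2 fold changes). Mvk was also positive with limma-voom (0.12) and with the replicate block (0.12). The exact letters of the shorter sterol element were in the windows of 1 member gene, those of the longer in 0. The cause of these changes was not tested.

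Libraries with the same number did not deviate together in every pair (r from -0.20 to 0.36, above 0.1 in 4 of 6 pairs; 5 of 12 libraries correlated best with their own number), so the numbers were not taken to pair libraries. With the replicate block 374 genes and 1 member were called (Insig2, log2 fold change 1.07, edgeR adjusted p = 0.0116).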

Other observations

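Genes on side branches of the mevalonate pathway differed in how they ran with the sterol enzymes from library to library. Pdss2, a subunit of the enzyme that makes the side chain of ubiquinone, had r = -0.70 with the mean of the 19 enzymes for deviations from the group means (-0.89 within KO, -0.57 within WT). Pdss1, the other subunit of that enzyme, went the other way, with 0.53 (0.064 within KO, 0.78 within WT). Coq2, which joins that side chain to the ring, had -0.51, with -0.95 within KO and -0.01 within WT. Of the sterol-sensing genes, Nr1h3, which encodes the receptor LXR alpha, had -0.57 (-0.79 within KO, -0.37 within WT). These genes were chosen from 54 after their values were seen, rest on 6 libraries per group, and were not tested.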
